A study of Mus musculus with 10 samples.

Results

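Signalling through the ERK branch of the mitogen-activated protein kinase (MAPK) pathways is limited by negative regulators that the pathway itself induces. The genes described here are the MAPK feedback inhibitors Dusp1, Dusp4, Dusp5, Dusp6, Spry1, Spry2, Spry4, Spred1 and Spred2, with the ERK-induced gene Phlda1. They were found by exact symbol in a table of transcript levels in RPKM, which divides reads by gene length and library size. The cells were NIH3T3, a mouse fibroblast line of embryonic origin. All 10 had a row, among 14849 rows that name a gene. They were parental cells, cells stably overexpressing a vector, or cells stably overexpressing FOXP2, a forkhead transcription factor, or FOXP2-CPED1, named in the title as a FOXP2 arrangement. There was 1 library of parental cells, 1 of vector cells, 4 of FOXP2 clones and 4 of FOXP2-CPED1 clones, and the parental and vector libraries together were the control (n = 2). Each clone is independent per the design text and gave 1 library, and p-values rest on the spread among these cultures alone. The vector cells are not stated to be a clone, so in comparisons with the control the effects of cloning and of the construct cannot be told apart.

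When a growth factor receptor is activated, the signal passes through Ras and Raf to the kinases MEK and ERK, and ERK then induces genes that switch the pathway off again. Dual-specificity phosphatases remove phosphate from the kinases themselves, Dusp1, Dusp4 and Dusp5 in the nucleus and Dusp6 in the cytoplasm. Sprouty proteins act between the receptor and Raf, and Spred proteins bring the Ras inactivator neurofibromin to the membrane. Because many of these genes are induced by ERK, their transcripts are widely read as a measure of its activity, including in fibroblasts.

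Steps among the low values gave each library's depth relative to parental, which was lowest for FOXP2-CPED1 clone 2 (0.913) and highest for clone 4 of that construct (1.32). Absolute depth is unknown. Mitochondrially encoded rows were listed at 0 in 3 libraries, FOXP2 clones 2 and 4 and FOXP2-CPED1 clone 3. The 8 fibroblast markers summed to 9115.6 and 9009.1 RPKM in parental and vector cells and to between 5944.8 and 8967.5 in the clones, below both controls in all 8. The markers did not all go the same way. Vim was 3139.5 and 2794.2 RPKM in parental and vector cells and 1295.0 to 2420.5 in the clones. Col1a1 was 960.0 and 991.5 in the controls and above both in all 4 FOXP2-CPED1 clones (1086.1 to 1239.3). For all clones 6 of the 8 markers had a negative log2 fold change. None of the 8 markers was called in any comparison. The part of these markers in the differences from the control given below was not tested. Of 5 epithelial and 4 endothelial markers 1 each had a row, with at most 2.37 and 0.536 RPKM, and none of 5 immune markers had a row of its own. In bulk RNA, fewer cells with a transcript and less transcript per cell cannot be told apart.

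Upstream sequences are shown for 4 of the genes, because Dusp5 and Dusp6 stood far apart from Dusp1 in the clones, and Spry2 had the highest level of the 3 Sprouty genes described. The sequences are the 250 bases before the start in the RefSeq promoter table (build GRCm38.p6). Entries of 7 of the 10 genes were used: Dusp1, Dusp5, Dusp6, Spry1, Spry2, Spred1 and Spred2. The upstream sequences of Dusp4, Spry4 and Phlda1 were not examined. Capitals mark matches to the CArG box, the motif of serum response factor, and to TGACG, the core of the cyclic AMP response element, on either strand.
Dusp5, chr19:53528895-53529144, + strand: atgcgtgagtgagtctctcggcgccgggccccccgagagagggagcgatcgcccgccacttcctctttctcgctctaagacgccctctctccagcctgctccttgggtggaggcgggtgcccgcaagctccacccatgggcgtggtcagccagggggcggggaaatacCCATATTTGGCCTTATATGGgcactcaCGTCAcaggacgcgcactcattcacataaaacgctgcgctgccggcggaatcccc
Dusp1, chr17:26508473-26508722, - strand: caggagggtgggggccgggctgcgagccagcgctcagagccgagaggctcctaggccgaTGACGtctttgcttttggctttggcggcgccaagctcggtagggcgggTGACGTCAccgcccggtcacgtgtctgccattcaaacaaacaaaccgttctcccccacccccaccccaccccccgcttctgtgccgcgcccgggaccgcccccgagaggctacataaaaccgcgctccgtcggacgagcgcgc
Dusp6, chr10:99262981-99263230, + strand: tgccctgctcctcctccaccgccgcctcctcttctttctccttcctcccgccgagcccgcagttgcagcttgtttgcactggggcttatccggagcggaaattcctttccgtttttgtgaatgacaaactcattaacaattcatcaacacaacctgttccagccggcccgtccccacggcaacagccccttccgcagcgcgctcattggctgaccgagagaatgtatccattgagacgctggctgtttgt
Spry2, chr14:105896820-105897069, - strand: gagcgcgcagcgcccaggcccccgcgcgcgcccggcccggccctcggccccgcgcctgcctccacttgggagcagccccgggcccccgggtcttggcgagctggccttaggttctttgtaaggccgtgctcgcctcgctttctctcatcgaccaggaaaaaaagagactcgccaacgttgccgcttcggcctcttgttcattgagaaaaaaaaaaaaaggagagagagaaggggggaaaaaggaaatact
Dusp5 had 2 adjoining CArG boxes, at 82 to 73 and 72 to 63 bases before the start, and 1 TGACG match. A CArG box was present in 1.47% of the 32851 windows of this length in the table, and in none of the other 6 genes' windows. Dusp1 had 3 matches to TGACG, of which 2 overlap, and 17.8% of all windows held at least 1. The ETS core GGAA, a site of ERK-regulated ETS factors, occurred 6 times for Dusp6, 3 times each for Dusp5 and Spry2, and 0 times for Dusp1, while 93.4% of all windows held it. The AP-1 site TGANTCA, present in 6.75% of windows, matched none of the 7. The forkhead site TGTTTNC, present in 17.8%, matched Dusp6 alone of the 7, at 180 to 174 bases before the start. These matches describe letters in a window and show no binding.

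In the control, per transcript length, Dusp1 (93.2 ± 0.252 RPKM, SD, n = 2) and Dusp5 (87.5 ± 8.39) had the highest levels and did not differ beyond their spread. Phlda1 (75.5 ± 3.78) and Dusp6 (52.9 ± 1.54) came next. Spry2 (19.8 ± 0.299), Spred1 (14.4 ± 0.483), Dusp4 (12.8 ± 0.338) and Spred2 (11.8 ± 0.031) followed. Spry1 (0.729 ± 0.0503) and Spry4 (0.459 ± 0.0749) were lower than all but 3.78% and 1.77% of the tested rows. Parental and vector cells were alike for these genes: vector over parental RPKM ran from 0.873 for Dusp5 to 1.26 for Spry4, with 1 library each and no test. In the clones Dusp1 kept the first rank in both constructs, whereas the mean of Dusp5 was below that of Dusp6 in both, by less than the SD between clones.

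**Figure D1:**
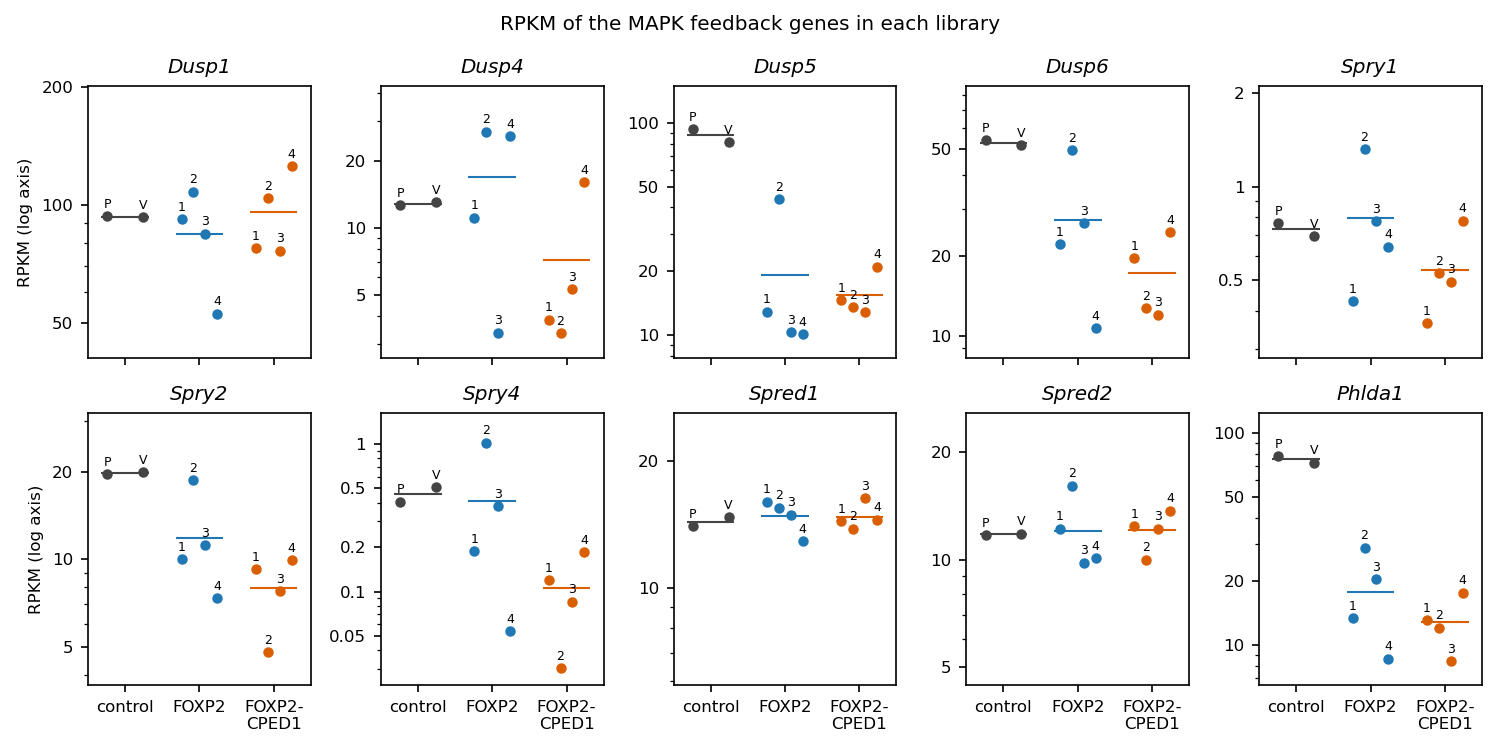
RPKM of each gene on a log axis, 1 point per library (P, parental; V, vector; digits, clone numbers) and a line at each group's mean. Dusp5, Dusp6, Spry2 and Phlda1 lie below both controls in all 8 clones, and clone 2 is the highest FOXP2 clone for 9 of the 10 genes.

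Among the phosphatases, Dusp5, which acts on nuclear ERK, showed the deepest difference. Parental cells had 93.4 RPKM and vector cells 81.5. FOXP2 clones 1 to 4 had 12.9, 43.6, 10.3 and 10.1 RPKM, and FOXP2-CPED1 clones 1 to 4 had 14.6, 13.5, 12.8 and 21.0. All 8 clones were below both controls, and FOXP2 clone 2 was far above the other 3 FOXP2 clones. Means were 19.2 ± 16.3 (n = 4) with FOXP2 and 15.5 ± 3.77 (n = 4) with FOXP2-CPED1, so the control mean was 4.56 and 5.65 times as high. The log2 fold change, on the log2(RPKM + 1) scale, was -2.40 ± 0.49 (SE) with FOXP2 (limma adjusted p = 0.0921) and -2.45 ± 0.49 with FOXP2-CPED1 (adjusted p = 0.0885). Neither passed the threshold of 0.05 after Benjamini-Hochberg adjustment over all 12842 rows tested. For all 8 clones the value was -2.42 ± 0.45 (adjusted p = 0.0506), and quantile normalization (adjusted p = 0.0387) or median ratio scaling (adjusted p = 0.0451) put it past the threshold. Without FOXP2 clone 2, a clone singled out by these same values, Dusp5 passed in each comparison with the control. The log2 fold change was then -2.87 for FOXP2 (limma adjusted p = 0.00102) and -2.66 for all clones (0.000532). For FOXP2-CPED1 it stayed at -2.45 (adjusted p = 0.00201), so there only the estimate of the spread changed. Leaving out any other single clone put Dusp5 past the threshold in no comparison with the control. The adjusted p then ran from 0.0989 to 0.189 for FOXP2, 0.0814 to 0.265 for FOXP2-CPED1 and 0.0541 to 0.111 for all clones. Without parental the adjusted p was 0.713, 0.838 and 0.64 in these comparisons, and without vector it was 0.665, 0.624 and 0.498. Fitted on the compared arms alone it was 0.3 for FOXP2 and 0.0111 for FOXP2-CPED1.

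Dusp6, the cytoplasmic phosphatase specific for ERK, had 54.0 and 51.8 RPKM in parental and vector cells. It was 22.1, 49.6, 26.4 and 10.7 in FOXP2 clones 1 to 4, and 19.5, 12.7, 12 and 24.4 in FOXP2-CPED1 clones 1 to 4. Every clone lay below both controls, but FOXP2 clone 2 was close to them, and FOXP2 clone 4 was the lowest library. The log2 fold change was -1.12 ± 0.48 with FOXP2 (limma adjusted p = 0.551) and -1.63 ± 0.48 with FOXP2-CPED1 (adjusted p = 0.355), with 4 of 4 clones lower each time. Neither passed, nor did the value for all clones, -1.38 ± 0.44 (adjusted p = 0.320).

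Dusp1, an immediate-early phosphatase of ERK, JNK and p38, showed no called difference. It was 93.4 and 93.0 RPKM in the controls, 91.9, 108.0, 84.5 and 52.8 in FOXP2 clones and 77.4, 104.1, 76.4 and 125.5 in FOXP2-CPED1 clones. The clones spread on both sides of the controls, with log2 fold changes of -0.19 ± 0.28 (limma adjusted p = 0.898) and 0.01 ± 0.28 (adjusted p = 0.9976). The 95% interval with FOXP2-CPED1 ran from -0.62 to 0.64.

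Dusp4, a nuclear phosphatase, varied more between clones of either construct than any other member on the log2(RPKM + 1) scale. The controls had 12.6 and 13.0 RPKM. FOXP2 clones had 11.1, 27.0, 3.38 and 25.8, and FOXP2-CPED1 clones had 3.86, 3.37, 5.29 and 16.0. Clones 2 and 4 of FOXP2 and clone 4 of FOXP2-CPED1 lay above both controls and the other 5 clones below. The SD between FOXP2 clones was 1.26 on the log2(RPKM + 1) scale, higher than that of 98.6% of tested rows, and with FOXP2-CPED1 it was 0.89 (97.2%). The log2 fold change was 0.03 ± 0.74 with FOXP2 (limma adjusted p = 0.997) and -1.0 ± 0.74 with FOXP2-CPED1 (adjusted p = 0.851).

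The 4 phosphatases together came to 253.3 and 239.4 RPKM in parental and vector cells. In the clones the sum ran from 99.4 in FOXP2 clone 4 to 228.2 in FOXP2 clone 2, below both controls in all 8. Dusp5 made up 35.5 ± 1.99% of it in the control (n = 2), 11.7 ± 4.97% with FOXP2 and 11.5 ± 1.08% with FOXP2-CPED1 (n = 4 each). The share of Dusp1 was 37.9 ± 1.41% in the control, 58.7 ± 10.1% in FOXP2 clones and 71.0 ± 5.09% with FOXP2-CPED1. These shares were not tested.

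**Figure D2:**
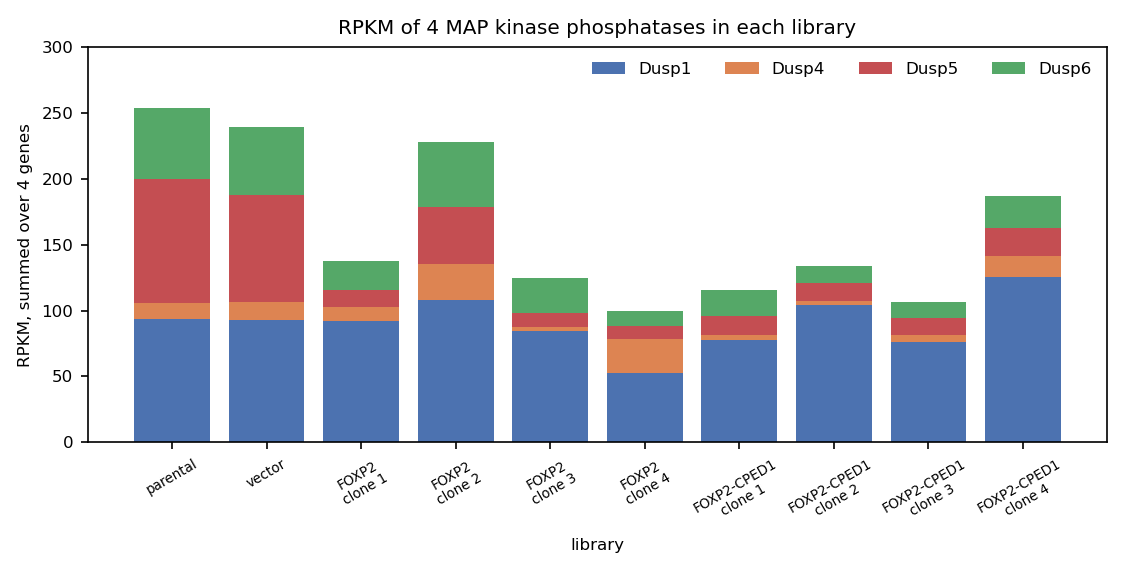
Stacked bars of RPKM for Dusp1, Dusp4, Dusp5 and Dusp6 in each library, on an axis that starts at 0. The Dusp5 segment is taller in the parental and vector bars than in any clone, and the total is lowest in FOXP2 clone 4, at 99.4 RPKM.

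Of the 3 Sprouty genes described here, Spry2, which restrains Ras and Raf activation, had the highest level. Parental cells had 19.6 RPKM and vector cells 20.0. FOXP2 clones had 10, 18.7, 11.2 and 7.37, and FOXP2-CPED1 clones had 9.24, 4.80, 7.76 and 9.95. All clones were below the controls, FOXP2 clone 2 by little, and the control mean was 1.68 times the FOXP2 mean and 2.49 times the FOXP2-CPED1 mean. The log2 fold change was -0.77 ± 0.33 with FOXP2 (limma adjusted p = 0.556) and -1.26 ± 0.33 with FOXP2-CPED1 (adjusted p = 0.258), past the threshold in neither.

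Spry1 and Spry4 reached 1 RPKM in 1 library each, FOXP2 clone 2, and so missed the filter of 1 RPKM in at least 2 libraries. Spry1 was 0.765 and 0.694 RPKM in the controls, 0.429, 1.32, 0.777 and 0.643 in FOXP2 clones and 0.365, 0.529, 0.496 and 0.779 in FOXP2-CPED1 clones. Its groups overlapped throughout. Spry4 was 0.406 and 0.512 RPKM in the controls and 0.187, 1.02, 0.378 and 0.0536 in FOXP2 clones. In FOXP2-CPED1 clones it was 0.120, 0.0302, 0.0854 and 0.185, all below both controls. Fitted with no filter, Spry4 had a log2 fold change of -0.40 with FOXP2-CPED1 (limma adjusted p = 0.779), a scale on which values this low move little. The control mean was 4.37 times as high, at a depth in reads that is unknown.

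No difference was called for the Spred genes. Spred1 was 14.0 and 14.7 RPKM in the controls and between 12.9 and 16.3 in all clones. Spred2, of the same function, was 11.7 and 11.8 in the controls and between 9.80 and 16.1 in the clones. Groups overlapped for both, with log2 fold changes for all clones of 0.04 ± 0.12 for Spred1 (limma adjusted p = 0.954) and 0.02 ± 0.18 for Spred2 (adjusted p = 0.983). The 95% intervals were -0.24 to 0.31 and -0.39 to 0.42.

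Phlda1, a pleckstrin homology-like protein whose transcript follows growth factor signalling, fell with FOXP2-CPED1 and was the only member to pass the test. It had 78.2 and 72.8 RPKM in parental and vector cells. FOXP2 clones had 13.4, 28.9, 20.5 and 8.65, and FOXP2-CPED1 clones had 13.1, 12.1, 8.44 and 17.7. No clone overlapped the controls, whose mean was 4.22 times that of FOXP2 and 5.90 times that of FOXP2-CPED1. The log2 fold change was -2.51 ± 0.40 with FOXP2-CPED1 (limma adjusted p = 0.0313, lower in 4 of 4 clones). It was -2.33 ± 0.37 for all clones (adjusted p = 0.0250, 8 of 8), and -2.14 ± 0.40 with FOXP2, which missed the threshold (adjusted p = 0.0677). The FOXP2-CPED1 call was lost without parental (adjusted p = 0.396), vector (0.391), FOXP2 clone 1 (0.0621) or FOXP2-CPED1 clone 1, 2 or 3 (0.103, 0.0916 and 0.0922), and with a pseudocount of 0.1 (0.0503). The call for all clones was lost without parental (adjusted p = 0.393), vector (0.338), FOXP2 clone 1 (0.0515) or FOXP2-CPED1 clones 1 or 2 (0.0589 and 0.0511). Without FOXP2 clone 2 Phlda1 also passed with FOXP2 (-2.41, adjusted p = 0.0285).

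**Figure D3:**
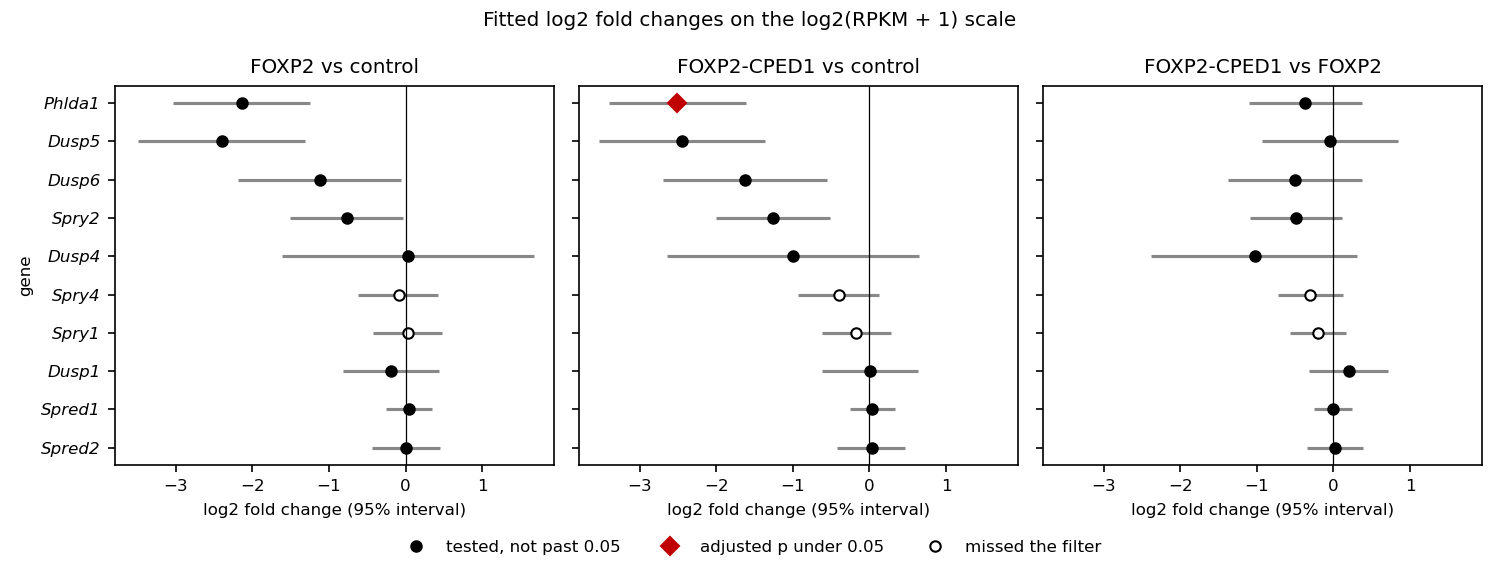
Fitted log2 fold changes with 95% intervals for 3 comparisons. Phlda1 with FOXP2-CPED1, at -2.51, is the only tested value past the threshold in these comparisons, and all intervals between the constructs include 0.

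Counted over the list, 0 of the 8 members tested passed with FOXP2, where limma called 0.436% of all rows and 0.397% as lower. Without adjustment 4 of 8 had p under 0.05, beside 8.52% of rows. With FOXP2-CPED1 1 of 8 passed, beside 0.35% of all rows (0.327% lower), and 4 had an unadjusted p under 0.05, beside 7.28%. For all clones 1 of 8 passed, beside 0.537% (0.498% lower), and 4 had an unadjusted p under 0.05, beside 9.1%. Values of the clones lay wholly below the control for 4 of 10 members with FOXP2, where 10.4% of tested rows did so. With FOXP2-CPED1 they did for 5 of 10, where 13.3% of tested rows did. Those 5 include Spry4, which missed the filter and so has no place among tested rows. For all clones the count was 4 of 10, beside 6.38%, and the members were Dusp5, Dusp6, Spry2 and Phlda1. The median log2 fold change over the 10 members was -0.14 with FOXP2, -0.70 with FOXP2-CPED1 and -0.36 for all clones, while over all tested rows it was 0.02, 0.00 and 0.01. The comparisons share their controls. The 10 genes were chosen with earlier results of these data known, so these counts describe the list and do not test it. With 2 controls, the smallest p of a two-sided exact permutation test is 0.0667 for 4 clones and 0.0222 for 8. Dusp5, Dusp6, Spry2 and Phlda1 each reached 0.0222, unadjusted. Only rows without overlap can reach it, so it repeats the count above and is no further evidence.

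Between the constructs 0 of the 8 members passed, and limma called 0% of rows (278 of 12842, or 2.16%, had an unadjusted p under 0.05). The FOXP2-CPED1 minus FOXP2 difference was -1.03 ± 0.60 for Dusp4 (95% interval -2.38 to 0.31) and -0.50 ± 0.39 for Dusp6 (-1.38 to 0.37). It was -0.49 ± 0.27 for Spry2 (-1.09 to 0.11), -0.37 ± 0.33 for Phlda1 (-1.10 to 0.37) and -0.05 ± 0.40 for Dusp5 (-0.93 to 0.84). These 5 intervals include 0 and are wide. For Spred1 the interval was narrow, from -0.25 to 0.24. Two-sided exact permutation tests gave p = 0.229 for Dusp4 and 0.200 for Spry2, where the smallest possible value is 0.0286.

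The clones of a construct differed from each other, and most members shared the highest clone. FOXP2 clone 2 was the highest FOXP2 clone for 9 of the 10 genes, all but Spred1, and FOXP2-CPED1 clone 4 was the highest of its construct for the same 9. Over all tested rows those clones were the highest for 36.6% and 35.6%. They were also the lowest of their construct for 30.9% and 34.0% of rows, so they stood out in both directions. FOXP2 clone 4 was the lowest of its construct for 7 genes, against 24.2% of tested rows. The lowest FOXP2-CPED1 clone was not shared: it was clone 2 for 5 genes, clone 3 for 4 and clone 1 for 1. The median difference from the control mean over the 10 genes was 0.16 for FOXP2 clone 2 and -0.14 for FOXP2-CPED1 clone 4. It ran from -0.29 in FOXP2 clone 1 to -1.08 in FOXP2-CPED1 clone 2 among the other 6. In FOXP2 clone 2 Dusp6 and Spry2 lay within 0.09 of the control mean on the log2 scale, while Dusp5 (-0.99) and Phlda1 (-1.35) did not. The same 2 clones had the lowest sums of fibroblast markers, 5944.8 and 6377.5 RPKM, mitochondrial rows were at 0 in FOXP2 clone 2 but not in FOXP2-CPED1 clone 4, and FOXP2-CPED1 clone 4 had the greatest relative depth. The part of these in which clone was highest was not tested. That most members shared the highest clone was noticed in the data.

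**Figure D4:**
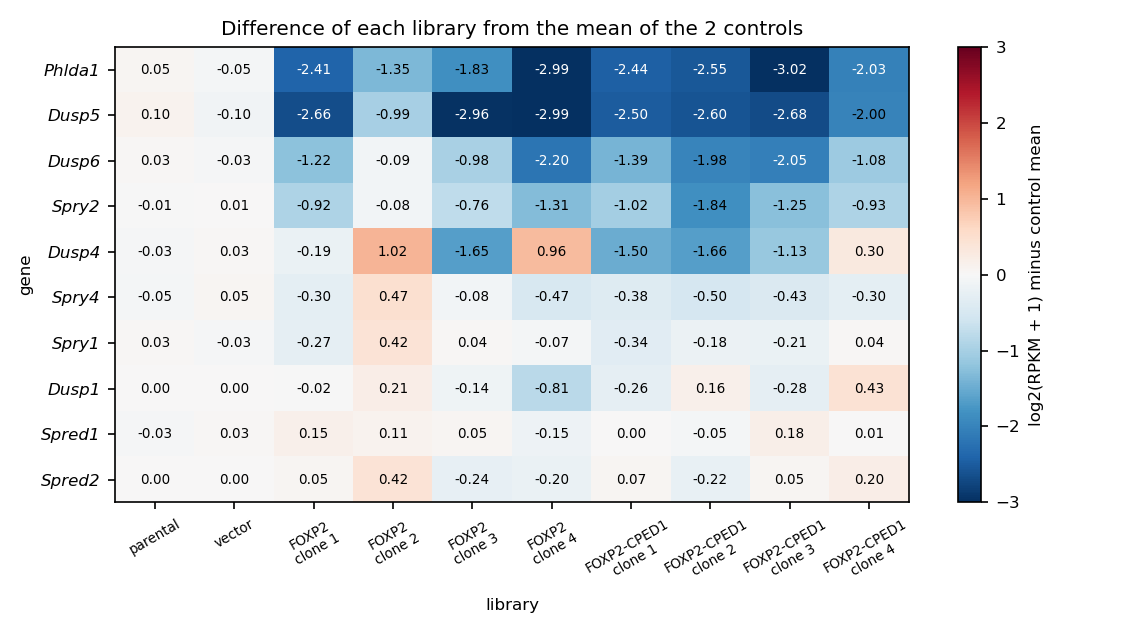
Difference of log2(RPKM + 1) from the control mean for each gene (rows) and library (columns), blue where lower and red where higher. The 4 upper rows are blue in nearly every clone, palest in FOXP2 clone 2, where Dusp6 is at -0.09 and Spry2 at -0.08.

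After each construct's mean was removed, 44 of the 45 pairs of members had a positive Pearson's r over the 8 clones, as a description. The points share their libraries, with the depth and scaling of each. No such count was made over pairs of other rows, so it does not set these genes apart. FOXP2 clone 2 and FOXP2-CPED1 clone 4 were each the highest of their construct for 9 of the 10 genes. The part of these clones in the r values was not tested. The closest pair was Dusp6 and Phlda1 (r = 0.95, Spearman's rho 0.95), followed by Dusp6 with Spry2 (r = 0.90, rho 0.81) and with Spry4 (r = 0.90, rho 0.90). Dusp5 with Spry4 was as close (r = 0.90, rho 0.83). Spry4 missed the filter, at 1.02 RPKM in FOXP2 clone 2 and between 0.0302 and 0.378 in the other clones. Its r values thus lean on low values and on FOXP2 clone 2, where Dusp5 was also highest (43.6 RPKM). For Dusp4 r ran from -0.16 with Spred1 and 0.06 with Phlda1 to 0.56 with Dusp5 and 0.61 with Spred2. Spred1 was likewise loosely tied to the rest, with r of at most 0.53, to Spry2.

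Of all 8576 single-gene rows with a mean of at least 5 RPKM, those most like Dusp5 over the 10 libraries were Cfap43 (r = 0.978), Bcar1 (0.974) and Nr4a1 (0.968). Phlda1 was most like Egr3 (0.977), Trib1 (0.975) and Ier5 (0.975). Dusp4 was most like Ppp1r15b (0.974), Osbpl3 (0.969) and Ifrd1 (0.966). For Dusp5 and Phlda1 the 10 libraries include the controls, and all 6 rows named for them were higher in both controls than in every clone. The rows named for Dusp4 did not share this. Of them, Ifrd1 was 32.4 and 28.9 RPKM in the controls. It was 24.7, 55.8, 12.3 and 48.8 in FOXP2 clones and 18.4, 17.3, 16.2 and 40.2 in FOXP2-CPED1 clones. It was high in the same 3 clones as Dusp4, which follows from its choice by r with Dusp4.

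Other genes of the pathway gave a background for these values. Over all rows limma called 0.436% with FOXP2, 0.35% with FOXP2-CPED1 and 0.537% for all clones. At those shares 0 is the usual count for lists of this size. Of 20 further feedback genes and inhibitors 19 were tested, and 0 passed with FOXP2 or with FOXP2-CPED1. For all clones 1 fell, Errfi1, an inhibitor of the epidermal growth factor receptor, from 90.3 ± 0.0341 RPKM (n = 2) to 19.0 ± 8.17 (n = 8; log2 fold change -2.30 ± 0.41, limma adjusted p = 0.0460). That call was lost without FOXP2 clone 1 (adjusted p = 0.0963) or clone 2 (0.0632), without parental (0.505) or vector (0.529), and without any FOXP2-CPED1 clone (0.05 to 0.0963), and with a pseudocount of 0.1 (0.0609) or 0.25 (0.0575), with no trend (0.0521) or without the 3 libraries with mitochondrial rows at 0 (0.134). The JNK and p38 phosphatase Dusp8 stood at 10.1 ± 0.088 and 4.54 ± 2.02 RPKM (adjusted p = 0.212) and the adaptor Dok1 at 47.5 ± 3.20 and 27.3 ± 6.33 (adjusted p = 0.140). Of 20 cascade genes from receptor adaptors to ERK 16 were tested and 0 passed in any comparison, with a median log2 fold change of 0.00 for all clones. The smallest p-values among them were those of the ERK-activated kinase Rps6ka3 (17.9 ± 1.31 and 30.2 ± 11.5 RPKM, adjusted p = 0.520), the docking protein Gab1 (10.1 ± 0.266 and 7.63 ± 1.46, adjusted p = 0.611) and the phosphatase Ptpn11 (49.1 ± 2.06 and 56.6 ± 4.31, adjusted p = 0.674). Of 13 kinases of the JNK, p38 and ERK5 branches 12 were tested and 0 passed, with a median of -0.01. Mapk8, which encodes JNK1, stood at 9.61 ± 0.978 and 13.2 ± 2.29 RPKM, and the p38 activator Map2k3 at 69.4 ± 0.402 and 51.8 ± 13.6. Map2k5, the activator of ERK5, stood at 12.5 ± 0.378 and 10.6 ± 0.974.

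Of 16 genes known to be induced by ERK or to act in that induction 15 were tested. With FOXP2 1 fell (Srf), and with FOXP2-CPED1 2 fell (Srf and Egr1), as for all clones, and 0 rose. Over all rows limma called 0.397%, 0.327% and 0.498% lower in these comparisons. For all clones Egr1 was lost without parental (adjusted p = 0.393), vector (0.42), FOXP2 clone 2 (0.0543) or FOXP2-CPED1 clone 1 (0.0689). The median log2 fold change of the 15 genes for all clones was -1.02, with 12 of 15 negative, beside 48.4% of all tested rows. This list was chosen with earlier results of these data known, so these counts do not test it. Srf, the factor that binds the CArG box, was 56.5 and 50.4 RPKM in parental and vector cells, 11.1, 17.2, 11.4 and 12.4 in FOXP2 clones and 13.0, 11.5, 10.1 and 14.8 in FOXP2-CPED1 clones. The groups did not overlap, and the log2 fold change was -1.98 ± 0.20 with FOXP2 (limma adjusted p = 0.00289) and -2.04 ± 0.20 with FOXP2-CPED1 (adjusted p = 0.00594). Without parental or vector these calls were lost (adjusted p from 0.0661 to 0.115), as for all clones (0.0654 and 0.0548). Egr1, an immediate-early zinc finger factor, had a mean of 176.9 ± 3.74 RPKM for the control, 57.7 ± 20.5 in FOXP2 clones and 29.7 ± 9.65 in FOXP2-CPED1 clones (adjusted p = 0.130 and 0.0247). The FOXP2-CPED1 call was lost without parental (adjusted p = 0.286), vector (0.352) or its clones 1 (0.0809), 2 (0.0524) or 3 (0.0638). Junb, an AP-1 subunit, stood at 213.5 ± 15.6 and 103.1 ± 31.6 RPKM in control and all clones (adjusted p = 0.151).

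**Figure D5:**
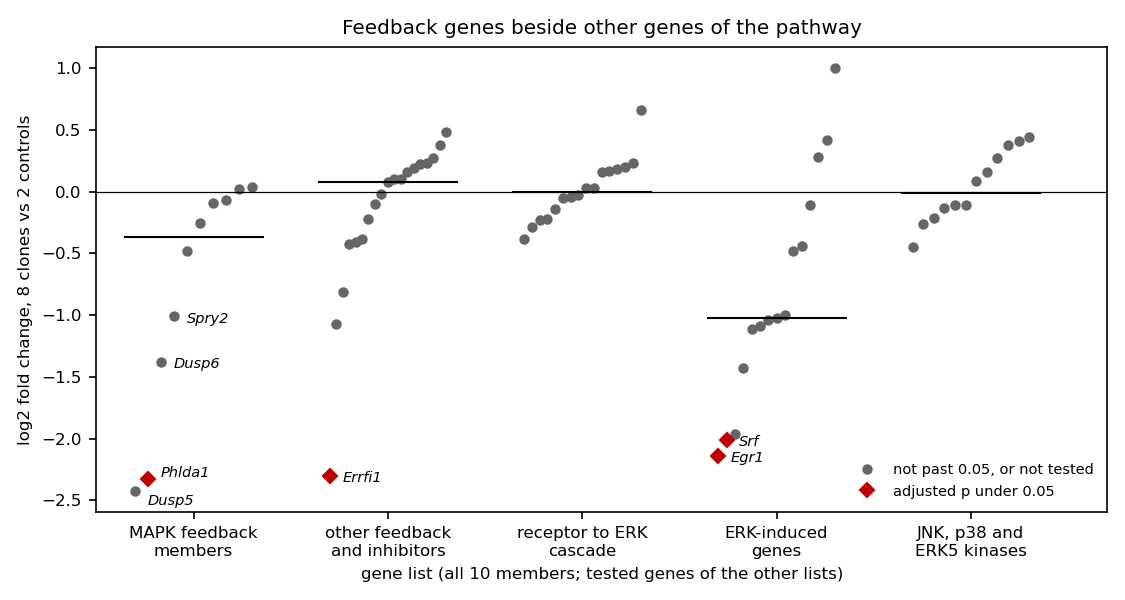
Log2 fold change of all 8 clones against the 2 controls, 1 point per gene, with a line at each list's median. The medians are -0.36 for the feedback genes and -1.02 for ERK-induced genes, and lie between -0.01 and 0.08 for the other lists.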

How the data were processed

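RNA was sequenced from 10 NIH3T3 cultures. The authors deposited 1 table of RPKM values with a column per library, made with HISAT2 and StringTie on mm9, per the submitters' processing notes; their versions, the annotation and the strand setting are not stated there. Of 18430 rows, 3581 that name no gene (3.37 to 4.54% of summed RPKM) were left out. A count model does not suit RPKM and was not run. Values were transformed as log2(RPKM + 1), and 12842 rows with at least 1 RPKM in at least 2 libraries were fitted with limma 3.58.1 (R 4.3.3; 3 arms, all 10 libraries, trend on the mean), with two-sided p-values, Benjamini-Hochberg adjustment over all rows and 0.05 as the threshold. "All clones" is the mean of both constructs minus control. The fit was tested on simulated data. The 10 genes and the pathway lists were chosen with earlier results of these data known. Named pathway genes passed in a comparison or were among the 3 smallest p-values of their list for all clones. Of 3 members with the largest SD, the 3 most correlated rows were named. The alternatives tried were a pseudocount of 0.1 or 0.25, no low-value filter, a mean of 5 RPKM, quantile and median ratio scaling, no trend, library quality weights, only the arms compared, a clone-number block, and leaving out libraries. Clone numbers did not pair the constructs. Promoters came from RefSeq (GRCm38.p6), not from the study's mm9 files.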

Additional observations from a re-analysis of the deposited data

Results flagged for a closer look

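Within the 4 clones of a construct, 44 groups were checked for a library far from the rest. They covered 22 genes, the 10 members and 12 named pathway genes, in 2 constructs. The gap to the nearest clone over the whole range, in untransformed RPKM, was set against Dixon's 95% critical value. For normally distributed values chance passes about 1 group in 20, a rate that skewed RPKM need not follow. Of the 44 groups 3 passed. Dusp5 in FOXP2 clone 2, at 43.6 RPKM against 10.1 to 12.9 in the other FOXP2 clones, had a value of 0.916. Dusp4 in FOXP2-CPED1 clone 4, at 16.0 RPKM against 3.37 to 5.29 in the others, had 0.848. Gab1 in FOXP2 clone 2, at 5.32 RPKM against 8.46 to 9.08, had 0.835.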

How the results depend on the processing

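In comparisons with the control, Dusp5, Dusp6, Spry2 and Phlda1 kept a negative log2 fold change under every alternative run. With FOXP2 the sign changed in 5 of 20 for Dusp4, in 5 of 20 for Spred2 and in 4 of 19 for Spry1. Dusp4 with FOXP2 was at -0.92 without the 3 libraries with mitochondrial rows at 0, among them FOXP2 clones 2 and 4. Rows called moved from 56 (FOXP2), 45 (FOXP2-CPED1) and 69 (all clones) to 37, 28 and 50 with a pseudocount of 0.1, and to 2095 (1013 higher, 1082 lower), 929 and 1842 with library quality weights, which called 4 between constructs. With FOXP2, 9 rows were called when the third arm was left out of the fit and 23 without the 3 libraries with mitochondrial rows at 0. Quality weights called 4 members (Dusp5, Dusp6, Spry2, Phlda1) in each comparison with control. Without the 3 libraries 2 were called in each (Dusp5, Phlda1), as in the FOXP2-CPED1 fit without the third arm and, for all clones, under quantile or median ratio scaling; with FOXP2-CPED1 a pseudocount of 0.1 called 0. The cause was not tested. The members' median was -0.51 with FOXP2 without the 3 libraries, -1.25 (FOXP2-CPED1) and -0.78 (all clones) with a pseudocount of 0.1, and -1.13 (FOXP2-CPED1) over the 8 members with a mean of 5 RPKM.

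Leaving out 1 library at a time, which with a control removed assumes that the lone control varies like the clones, gave 2 to 64 rows called with FOXP2, 0 to 57 with FOXP2-CPED1, 2 to 82 for all clones and 0 to 1 between constructs. With FOXP2 the count was 2 without parental, 3 without vector, 22 and 25 without FOXP2 clones 1 and 4, and 33 and 29 without FOXP2-CPED1 clones 1 and 3. With FOXP2-CPED1 it was 0, 2, and 13, 14 and 17 without FOXP2-CPED1 clones 1 to 3; for all clones it was 2, 3, and 43 and 42 without FOXP2-CPED1 clones 1 and 3. Members called ranged from 0 to 2 in each comparison with control and stayed at 0 between constructs. Their median ranged from -0.31 to -0.12 (FOXP2), -0.90 to -0.57 (FOXP2-CPED1), -0.49 to -0.23 (all clones) and -0.34 to -0.09 (between constructs). With the clone number as a replicate block, 0 rows and 0 members were called between constructs; same-numbered clones correlated at -0.036, -0.240, 0.281 and 0.166 in their deviations, so they share only a number. The depth in reads is unknown, which limits Spry1 and Spry4 most.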

Other observations

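Several ERK-induced genes, chosen here after their values were seen, were high in the same clones as the feedback genes. Of the 15 tested, FOXP2 clone 2 was the highest FOXP2 clone for 10, and FOXP2-CPED1 clone 4 was the highest of its construct for 8. Etv4, an ETS factor, was 1.42 and 1.22 RPKM in parental and vector cells, 19.8 and 7.83 in those 2 clones, and between 1.00 and 5.91 in the other clones. The cyclin Ccnd1 was 46.9 and 48.5 RPKM in the controls, 114.3 and 108.8 in those 2 clones, and between 15.4 and 56.7 in the others. Fosl1, an AP-1 subunit, was 78.8 and 67.6 RPKM in the controls, 82.4 and 36.4 in those clones, and between 14.7 and 30 in the others. The ephrin receptor Epha2 was 18.8 RPKM in each control, 21.9 and 19.6 in those clones and at most 8.51 in the rest. Other genes of the 15 went the other way, and FOXP2 clone 2 was the lowest FOXP2 clone for 2, Fos and Junb. Fos was 7.43 RPKM there against 11.9 to 28.5 in the other FOXP2 clones, and Junb 80.5 against 83.3 to 168.5. Egr1 was 58.4 RPKM there, below FOXP2 clones 1 and 3 (67.6 and 75.8). FOXP2 clone 2 was the highest FOXP2 clone for 3 of the 16 tested cascade genes and 6 of the 19 other feedback genes, beside 36.6% of all tested rows. FOXP2-CPED1 clone 4 was the highest of its construct for 6 of 16 and 11 of 19, beside 35.6%.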
